A study of Homo sapiens with 14 samples.

Results

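Nascent transcription in A549 cells given the PRMT5 inhibitor GSK591 together with dexamethasone (Dex) was compared with that in untreated cells. The comparison rests on 4 of the 14 libraries of the series, chosen by their sample labels: 2 libraries of cells that received 1 µM GSK591 and 100 nM Dex for 15 min, and 2 of untreated cells. A549 is an established human lung adenocarcinoma line, Dex is a synthetic glucocorticoid, and all 4 libraries, untreated ones included, carry 0.01% DMSO and the 15 min label. A further 2 libraries given GSK591 alone for 15 min, and 2 given Dex for 15 min with MS023 (1 µM, an inhibitor of type I arginine methyltransferases), were used to place the difference. Cells given Dex without an inhibitor are not analysed here, so the 2 agents cannot be told apart in the comparison with untreated cells. The labels do not say whether the replicates came from separate cultures, and p-values measure only the spread between these samples, which may be technical.

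Precision run-on sequencing (PRO-seq) permeabilizes cells, lets engaged RNA polymerases add labelled nucleotides, and sequences the RNA made, so it reads transcription rather than RNA stores. Glucocorticoids bind the glucocorticoid receptor, which moves to the nucleus, binds response elements that often lie far from promoters, and raises genes that feed back on hormone, cytokine and kinase signalling. In airway epithelium they are known for restraining inflammatory genes and for supporting ion transport and surfactant. PRMT5 places symmetric dimethyl marks on arginines of histones and of the Sm proteins of the spliceosome.

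Total counts were 7317701 and 8090485 in the libraries given both agents and 9606938 and 9343048 in the untreated ones. Levels are given as CPM, the count scaled to a common library size by the TMM method. Mitochondrial genes took 48.2% and 58.0% of the counts with both agents and 54.0% and 53.8% in untreated cells, and annotated rRNA genes took 1.09% and 0.638% against 0.611% and 0.521%. The 2 libraries given both agents differed from each other more than any other replicate pair of the series, as measured by chi-square over its degrees of freedom: 13.9 over 21248 genes, where the untreated pair had 2.08. That measure used counts scaled by library total, mitochondrial genes included, so the unlike mitochondrial shares of the pair enter it. Correlation of log2 CPM on TMM scaling was also lowest in this pair, 0.96, where the others had 0.974 to 0.981. The line's markers were present: KRT8, KRT18, KRT7, AKR1B10, AKR1C1 and ALDH1A1 had 731 or more counts in each of the 4 libraries, while NKX2-1 had at most 3, and of the 12 lung markers tested KRT7 was called (0.34), a call lost without either untreated library (0.29, adjusted p 0.37 and 0.39, 0.14) and without the second GSK591 with Dex library (0.29, 0.18). The 14 markers of leukocytes, endothelium, fibroblasts, hepatocytes and erythroid cells summed to 102 and 97 counts with both agents and to 116 and 95 in untreated cells, with CD3E, DES and HBB at 0.

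With GSK591 and Dex, genes of glucocorticoid feedback such as ERRFI1, PER1, TSC22D3, ZFP36 and NFKBIA rose, and GYS1, IER2, BHLHE40, AJUBA and the actin genes ACTB and ACTG1 fell. Of 21910 genes tested with edgeR's quasi-likelihood test, 1282 (5.85%) passed a Benjamini-Hochberg adjusted p of 0.05: 703 higher (3.21%) and 579 lower (2.64%). Of the 13486 that averaged 5 CPM or more over the 4 libraries, 8.53% were called, 4.69% higher and 3.85% lower. Over all genes tested the median fold change was 0.01 on the log2 scale. Scaling by library size alone moved that median to -0.12 and gave 228 higher and 740 lower calls, so 23.6% of calls were higher in place of 54.8%. Leaving out untreated replicate 1 left 420 calls, untreated replicate 2 609 and the second GSK591 with Dex library 821. The libraries of the 2 groups did not overlap for 10046 genes (45.9%), which is the background for such a separation.

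**Figure D1:**
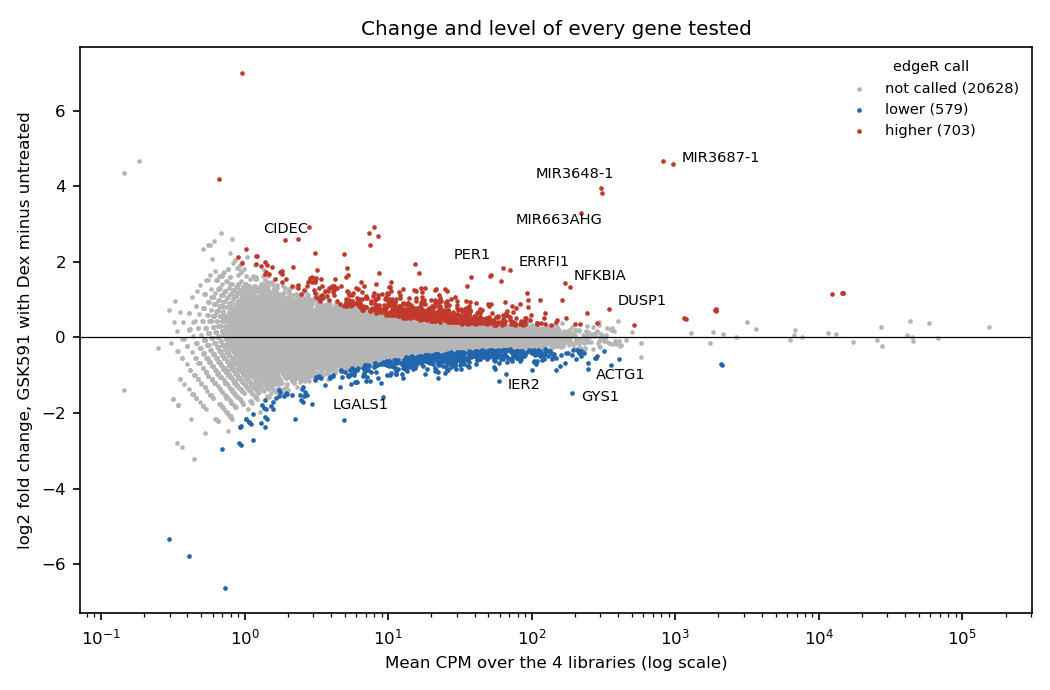
Mean level over the 4 libraries (CPM, log axis) against the log2 fold change of GSK591 with Dex over untreated for the 21910 genes tested, 1 point per gene, coloured by edgeR call. ERRFI1, PER1 and NFKBIA lie above the bulk of genes of their level and GYS1 and IER2 below it, and the called points beyond 5 in either direction belong to genes with no count in either library of 1 group.

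Feedback and signalling targets of the receptor were the list with the most rises: 12 of 26 members tested rose and 1 fell, and the median log2 fold change was 0.50. ERRFI1, a feedback inhibitor of EGFR signalling (chromosome 1, 8004404 to 8026308, minus strand, GRCh38), stood at 31.9 and 31.8 CPM in untreated cells and at 120.4 and 99.2 CPM with both agents. The libraries given both agents were the high ones, with no overlap. It rose by 1.79 ± 0.11 (SE) on the log2 scale, 3.45-fold, with an edgeR adjusted p of 1.9e-14. TSC22D3, which encodes the anti-inflammatory protein GILZ (chromosome X, 107713221 to 107777342, minus strand), went from 23.6 and 26.3 to 82.9 and 71.3 CPM, and PER1, a circadian repressor and a classical glucocorticoid target (chromosome 17, 8140472 to 8156506, minus strand), from 26.9 and 29.01 to 107 and 91.2 CPM. Again no untreated library reached the treated ones, and the log2 fold changes were 1.63 ± 0.11 and 1.83 ± 0.13 (SE; edgeR adjusted p 2.3e-13 and 2.0e-13). All 3 share exon positions with another annotated gene, as do TNFAIP3 and TIPARP, and how such reads were assigned is uncertain.

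Of the same list ZFP36, NFKBIA, DUSP1 and TNFAIP3 were also called higher. ZFP36, which encodes an RNA-binding protein that speeds decay of cytokine mRNAs (chromosome 19, 39406813 to 39409412, plus strand), read 111 and 98.8 CPM in untreated cells and 275 and 258 CPM with both agents. NFKBIA, the inhibitor that holds NF-kappa-B in the cytoplasm (chromosome 14, 35401511 to 35404749, minus strand), read 86.8 and 98.1 and 265 and 233 CPM. Neither gene shares an exon with another annotated gene, and in each the groups stood apart by more than the spread within them. Their log2 fold changes were 1.34 ± 0.10 and 1.43 ± 0.10 (SE; edgeR adjusted p 2.6e-13 for each). DUSP1, a phosphatase that switches off stress-activated MAP kinases (chromosome 5, 172768090 to 172771195, minus strand), was already at 259 and 252 CPM and rose by 0.76 ± 0.11 (SE; edgeR adjusted p 6.6e-06) to 465 and 401 CPM. TNFAIP3, which edits ubiquitin on NF-kappa-B signalling proteins, went from 6.99 and 6.35 to 13.3 and 13.8 CPM (1.02 ± 0.19 SE on the log2 scale; edgeR adjusted p 5.7e-04).

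The other called members had smaller changes or lower levels. CIDEC, a lipid droplet protein, had the largest fitted rise of the list, 2.57 ± 0.47 (SE; edgeR adjusted p 3.9e-04), at a low level of 0.645 and 0.438 CPM in untreated cells and 3.68 and 2.91 CPM with both agents. SLC19A2 (a thiamine transporter), TIPARP, SGK1 (a kinase that holds sodium channels at the cell surface) and BIRC3 rose by 0.89, 0.50, 0.50 and 0.59. PLK2 was the member that fell, by 0.48 ± 0.10 (SE; edgeR adjusted p 0.0019), from 198 and 177 to 140.3 and 129 CPM. Members that did not pass the test included DDIT4 at 211 and 188 CPM against 234 and 221, CRISPLD2 at 1.72 and 1.20 against 1.84 and 2.30, and GADD45B at 94.8 and 85.0 against 96.2 and 79.7. Without untreated replicate 1 the calls of SGK1 (0.44, adjusted p 0.13), BIRC3 (0.40, 0.42) and PLK2 (-0.40, 0.10) were lost, without the first GSK591 with Dex library that of TIPARP (0.37, 0.054), and without the second again that of BIRC3 (0.48, 0.23).

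**Figure D2:**
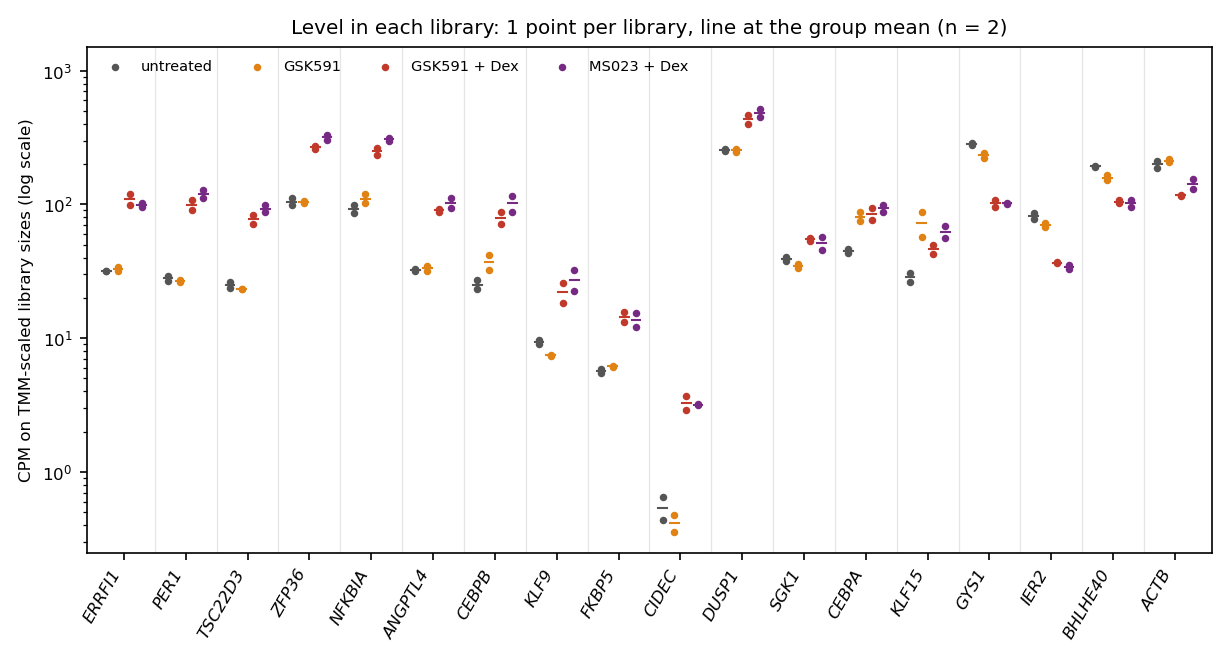
CPM (log axis) of 18 named genes in untreated cells, with GSK591 alone, with GSK591 and Dex and with MS023 and Dex, all at 15 min, 1 point per library and a line at the mean of 2. ERRFI1, PER1, TSC22D3, ZFP36, ANGPTL4 and DUSP1 lie high only in the groups drawn that had Dex, CEBPA and KLF15 are raised with GSK591 alone as well, and GYS1, IER2, BHLHE40 and ACTB lie lowest where Dex was given.

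The 250 bases before the start sites of 4 genes that rose are shown because they differ in the elements they hold. RefSeq promoters (GRCh38.p14) were matched for 12880 tested genes with 18257 windows from 250 bases before to 50 after a start. Capitals mark matches on either strand to 5 motifs: the full palindromic glucocorticoid response element, its shorter core AGAACA, the AP-1 element TGANTCA, the cAMP response element TGACGTCA and the TATA box TATAAA. MAP3K6, a stress-activated kinase named after its values were seen, was the one gene called higher with the full element in its window.
ERRFI1 (chr1:8026310-8026559, minus strand): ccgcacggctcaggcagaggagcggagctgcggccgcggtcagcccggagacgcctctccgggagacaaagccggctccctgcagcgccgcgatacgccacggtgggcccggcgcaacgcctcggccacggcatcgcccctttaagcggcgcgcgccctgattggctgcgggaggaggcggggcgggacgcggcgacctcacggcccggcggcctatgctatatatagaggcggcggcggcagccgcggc
DUSP1 (chr5:172771196-172771445, minus strand): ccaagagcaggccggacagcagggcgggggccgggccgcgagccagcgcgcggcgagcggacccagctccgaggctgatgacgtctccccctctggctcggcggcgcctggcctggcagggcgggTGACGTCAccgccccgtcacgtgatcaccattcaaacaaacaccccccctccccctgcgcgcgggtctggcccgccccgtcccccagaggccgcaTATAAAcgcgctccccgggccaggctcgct
NFKBIA (chr14:35404750-35404999, minus strand): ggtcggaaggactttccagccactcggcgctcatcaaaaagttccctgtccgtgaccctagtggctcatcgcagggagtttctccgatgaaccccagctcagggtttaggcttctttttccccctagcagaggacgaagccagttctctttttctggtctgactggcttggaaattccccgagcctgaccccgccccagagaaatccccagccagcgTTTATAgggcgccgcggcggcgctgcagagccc
MAP3K6 (chr1:27366962-27367211, minus strand): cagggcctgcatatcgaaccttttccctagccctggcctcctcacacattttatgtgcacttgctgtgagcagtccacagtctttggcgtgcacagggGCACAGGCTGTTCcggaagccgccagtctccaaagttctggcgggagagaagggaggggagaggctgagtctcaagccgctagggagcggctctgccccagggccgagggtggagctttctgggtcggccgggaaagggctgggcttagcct

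No match to the 5 motifs fell in the ERRFI1 stretch, the gene with the smallest p. DUSP1 has a cAMP response element beginning 125 bases and a TATA box beginning 30 bases before its start, and NFKBIA a TATA box on the other strand beginning 33 bases before. MAP3K6 has the full glucocorticoid element beginning 152 bases before its start and rose by 0.60 ± 0.13 (SE; edgeR adjusted p 0.0025), from 19.8 and 20.1 to 32.7 and 27.9 CPM. Its call was lost without untreated replicate 1 (0.58, adjusted p 0.059) and without the first GSK591 with Dex library (0.47, 0.077). The full element stood in 1 of 711 windows of genes called higher (0.141%, exact 95% binomial interval 0.00356 to 0.781%), in 3 of 578 windows of genes called lower (0.519%; AMPD2 and RHOT2) and in 0.236% of all windows. The core AGAACA stood in 10.5% of windows of genes called higher, 7.79% of those called lower and 10.1% of all, and the AP-1 element in 7.17%, 5.36% and 5.41%. The cAMP response element stood in 2.25%, 2.60% and 2.72% of those windows. TATAAA stood in 10.4% (8.26 to 12.9%) of windows of genes called higher, 5.02% (3.39 to 7.13%) of those called lower and 6.76% of all. Windows of one gene overlap, intervals cover counting error only, and a match to letters is not a bound site.

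Of 13 genes of the receptor and its cofactors tested, FKBP5 alone was called, a share of 7.7% that is near the 5.85% of all genes and the 8.53% of those at 5 CPM or more. FKBP5, a co-chaperone that lowers the receptor's hormone affinity and a standard glucocorticoid target (chromosome 6, 35573585 to 35728583, minus strand), went from 5.92 and 5.47 to 13.2 and 15.8 CPM. Both treated libraries were above both untreated ones, a rise of 1.34 ± 0.21 (SE; edgeR adjusted p 4.4e-05). The receptor gene NR3C1 was read at 66.9 and 72.3 CPM in untreated cells and 62.1 and 57.7 CPM with both agents (-0.22 ± 0.11 SE; edgeR adjusted p 0.29), and PTGES3, the p23 co-chaperone, at 40.0 and 36.2 and 28.3 and 30.1 CPM (-0.38 ± 0.12; 0.057). HSP90AA1 and HSP90AB1, the chaperones that hold the unliganded receptor, overlapped between the groups. The median of the list was 0.10.

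Among Kruppel-like factors, which bind GC-rich promoter sites, 5 of 13 tested rose and KLF10 fell, with a median of 0.35, and the other 7 were not called. That is 46.2% called, against 5.85% of all genes tested. KLF9, a repressor induced by glucocorticoids (chromosome 9, 70384597 to 70414624, minus strand), went from 9.03 and 9.74 to 25.9 and 18.4 CPM, and KLF6 (chromosome 10, 3775996 to 3785281, minus strand) from 106 and 113 to 229.6 and 201 CPM. In both genes the treated libraries stood above the untreated ones, and the rises were 1.24 ± 0.18 and 0.98 ± 0.10 (SE; edgeR adjusted p 7.8e-06 and 2.7e-09). KLF4 rose by 1.07 ± 0.14 (SE; 6.2e-07), KLF5 by 0.48 ± 0.11 (0.0071) and KLF15 by 0.69 ± 0.19 (0.023), while KLF10, a TGF-beta early response gene, fell by 0.64 ± 0.13 (0.0011). KLF2, KLF3 and KLF11 overlapped between the groups.

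Of 18 tested genes for C/EBP proteins and other factors, 6 rose and ELF3 fell, again with a median of 0.35. The share called was 38.9%, against 5.85% of all genes tested. CEBPB, a basic leucine zipper factor that acts with the receptor (chromosome 20, 50190734 to 50192689, plus strand), stood at 27.0 and 23.21 CPM untreated and 87.0 and 71.8 CPM with both agents. That is 3.16-fold higher, 1.66 ± 0.14 (SE) on the log2 scale, with an edgeR adjusted p of 2.9e-11. CEBPD (0.82 ± 0.12 SE; 7.0e-06), CEBPA (0.94 ± 0.13; 7.7e-06), FOXO1 (0.79), FOXO3 (0.59) and ETS2 (0.44) also rose, and ELF3, an epithelial ETS factor, fell by 0.37 ± 0.10 (0.025). CEBPB and CEBPA share exons with antisense genes, and the strand setting of the counting is not given in the sources used here. FOXO1, FOXO3, ETS2 and ELF3 each lost their call without at least 2 of the 4 libraries, with adjusted p values up to 0.41, for FOXO3 without the first GSK591 with Dex library (0.27). KLF5 lost it without untreated replicate 2 (0.41, adjusted p 0.14) and without the second GSK591 with Dex library (0.42, 0.083), and KLF15 without either untreated library (0.58, 0.27 and 0.80, 0.073) and without the first GSK591 with Dex library (0.56, 0.15).

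Genes of fuel use went in both directions, with 6 of 30 tested rising, 1 falling and a median of 0.06. ANGPTL4, an inhibitor of lipoprotein lipase (chromosome 19, 8363289 to 8374373, plus strand), went from 31.8 and 32.6 to 93.1 and 88.0 CPM, a rise of 1.49 ± 0.11 (SE; edgeR adjusted p 2.6e-13). IRS2, an adaptor of the insulin receptor, went from 54.3 and 61.1 to 138 and 119.8 CPM (1.16 ± 0.10 SE; 6.8e-11), and PDK4, the kinase that turns off pyruvate dehydrogenase, from 9.79 and 10.9 to 24.5 and 27.1 CPM (1.31 ± 0.16; 1.5e-07). None of these groups overlapped. GYS1, which encodes the glycogen synthase of muscle and most tissues (chromosome 19, 48968125 to 48993310, minus strand), had the smallest p among the genes that fell: 279 and 285 CPM untreated against 95.1 and 108 CPM with both agents. It fell by 1.47 ± 0.11 (SE; edgeR adjusted p 2.6e-13), and it was called lower under all 12 alternatives.

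The metallothionein genes MT2A and MT1X, metal-binding proteins that glucocorticoids induce, rose by 1.36 ± 0.12 (SE; edgeR adjusted p 3.7e-11) and 0.97 ± 0.13 (3.0e-06). MT2A (chromosome 16, 56608199 to 56609497, plus strand) went from 20.2 and 19.5 to 53.6 and 48.4 CPM, and MT1F, not called, was at 3.33 and 2.63 against 2.12 and 4.44 CPM. AC026461.3, a long noncoding gene on the other strand directly past the end of MT2A (chromosome 16, 56609501 to 56611375, minus strand), was among the 10 largest rises by the naming rule, from 6.34 and 6.24 to 20.8 and 28.2 CPM (1.95 ± 0.18 SE; 2.2e-10). With the strand setting not given, reads of the 2 genes cannot be told apart where one is transcribed into the other. IGFBP1 rose by 1.02 ± 0.26 (0.014), but its treated libraries stood at 10.9 and 5.97 CPM, and the call was lost without the first of them (0.51, adjusted p 0.41) and without either untreated library (1.10, 0.088 and 0.94, 0.13).

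Among 18 circadian clock genes tested, PER1, PER2 and NR1D2 rose, BHLHE40 fell and the median was 0.02. That is 22.2% called, against 5.85% of all genes tested. BHLHE40, a repressor that competes with the clock activators (chromosome 3, 4979116 to 4985323, plus strand), was at 195 and 189 CPM untreated and at 102 and 108 CPM with both agents, a fall of 0.87 ± 0.10 (SE; edgeR adjusted p 3.2e-08). The activators CLOCK, ARNTL and NPAS2 overlapped between the groups and were not called. PER2 rose by 0.53 ± 0.14 (0.018) and lost its call without any 1 of the 4 libraries, with log2 fold changes of 0.45 to 0.59 and adjusted p of 0.059 to 0.23. NR1D2 (0.91) lost it without untreated replicate 1 (0.72, 0.19). Of 13 tested genes of epithelial ion transport and surfactant, TSC22D3, SGK1 and ATP1B1 rose and none fell, with a median of 0.34. The sodium channel subunit SCNN1A was at 51.5 and 58.5 against 67.6 and 63.5 CPM and the surfactant gene SFTPB at 13.4 and 12.3 against 17.3 and 15.2 CPM, neither past the test (0.17 and 0.24). ATP1B1 lost its call without untreated replicate 1 (0.54, 0.093).

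**Figure D3:**
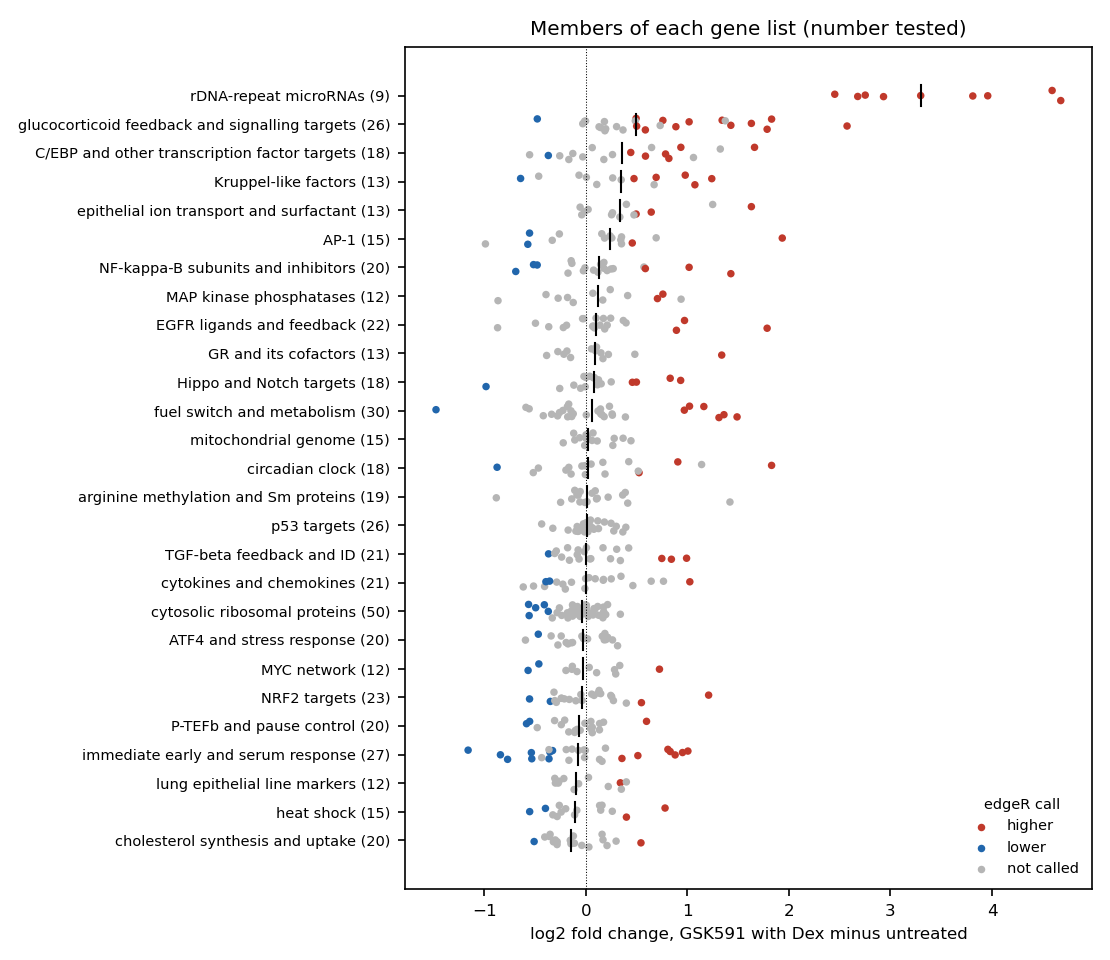
The log2 fold change of GSK591 with Dex over untreated for the tested members of 27 gene lists, 1 point per gene coloured by edgeR call, with a black line at each list's median and the number tested in brackets. Medians run from -0.14 for cholesterol synthesis to 0.50 for glucocorticoid feedback targets, apart from 3.30 for the microRNA genes of the ribosomal DNA repeats.

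Components of NF-kappa-B signalling went in both directions. Of 20 tested, NFKBIA, TNFAIP3 and BIRC3 rose, while the subunit gene NFKB2 and the inhibitor genes NFKBIB and NFKBID fell, and the median was 0.13. That is 30.0% called, against 5.85% of all genes tested. The call of BIRC3 was lost when single libraries were left out, as given above. NFKB2 (chromosome 10, 102394110 to 102402529, plus strand) went from 69.4 and 77.3 to 49.9 and 40.9 CPM, a fall of 0.69 ± 0.11 (SE; edgeR adjusted p 3.4e-05), and its groups did not overlap. NFKBIB and NFKBID fell by 0.48 ± 0.14 and 0.51 ± 0.14, and both lost their call without untreated replicate 1 (-0.35, adjusted p 0.38 for each) and without the first GSK591 with Dex library (-0.35, 0.25 and -0.50, 0.095). NFKBID lost it also without the second (-0.52, 0.098). RELA was at 67.2 and 60.4 against 57.1 and 58.5 CPM and was not called.

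Of 21 cytokine and chemokine genes tested, CXCL2 rose and TGFB1 and GDF15 fell, with a median of 0.00. That is 14.3% called, against 5.85% of all genes tested and 8.53% of those at 5 CPM or more. CXCL2, a neutrophil attractant (chromosome 4, 74097035 to 74099293, minus strand), went from 16.7 and 19.7 to 39.3 and 34.6 CPM (1.02 ± 0.14 SE; edgeR adjusted p 2.4e-06), and its neighbours in the family CXCL1 and CXCL3 were at 12.4 and 10.2 against 9.48 and 7.50 and at 9.03 and 9.31 against 10.3 and 5.20 CPM without a call. TGFB1 and GDF15 fell by 0.36 ± 0.10 and 0.39 ± 0.11. Both calls were lost without either untreated library and without the second GSK591 with Dex library, with log2 fold changes from -0.45 to -0.23 and adjusted p from 0.067 to 0.38. IL6, TNF and IL1A did not pass the count filter. PTGS2, the inducible prostaglandin synthase, was at 11.2 and 9.74 against 7.50 and 6.12 CPM (-0.61 ± 0.20 SE; 0.058).

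Most listed genes of kinase signalling were not called. Of the MAP kinase phosphatases 16.7% were called, against 5.85% of all genes tested. DUSP5, a nuclear phosphatase of ERK, rose with DUSP1 among 12 phosphatases tested, from 50.2 and 51.7 to 80.8 and 85.5 CPM (0.71 ± 0.10 SE; edgeR adjusted p 1.2e-05), and DUSP4 and DUSP6 were not called. In the EGFR list, SPRY1, SPRY2, SPRY4, SPRED1, SPRED2 and SPRED3, which encode feedback inhibitors of the same pathway, were not called. Of the 22 tested, none fell and 3 rose (13.6%, against 5.85% called of all genes tested and 8.53% of those at 5 CPM or more). Besides ERRFI1 they were LRIG1 (0.89 ± 0.17 SE; 5.3e-04), which promotes receptor degradation, and SOCS1 (0.97 ± 0.14; 1.2e-05), a brake on cytokine receptors, which read 21.7 and 25.2 CPM untreated and 52.5 and 39.3 CPM with both agents. Of 15 AP-1 genes tested 2 rose, FOSL2 among them, and JUN and MAFG fell (26.7% called), with a median of 0.24. JUN (chromosome 1, 58780788 to 58784327, minus strand) went from 81.4 and 88.8 to 55.3 and 59.4 CPM, a fall of 0.57 ± 0.10 (SE; edgeR adjusted p 2.0e-04), and FOSL2 rose by 0.46 ± 0.09 (9.6e-04). FOS was at 40.6 and 33.1 against 48.8 and 45.3 CPM and JUNB at 114 and 100.5 against 91.8 and 78.7 CPM, each with an adjusted p of 0.057 in edgeR.

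Immediate early and serum response genes split: 7 of 27 tested rose and 8 fell, with a median of -0.07. The share called was 55.6%, against 5.85% of all genes tested. IER2, an early gene of unclear nuclear function (chromosome 19, 13150415 to 13154908, plus strand), went from 85.9 and 77.8 to 36.5 and 36.9 CPM, a fall of 1.16 ± 0.10 (SE; edgeR adjusted p 1.1e-10). The cytoskeletal actin genes ACTB (chromosome 7, 5527147 to 5563784, minus strand) and ACTG1 (chromosome 17, 81509971 to 81523847, minus strand), which serum response factor controls, went from 212 and 187 to 118 and 116 CPM and from 326 and 304 to 206 and 145 CPM. In all 3 genes every treated library was below every untreated one, and the actin genes fell by 0.77 ± 0.10 and 0.84 ± 0.12 (SE; 2.2e-06 and 5.5e-06). Reads of actin genes may also come from their processed pseudogenes, so their values are uncertain. ZFP36L1, a relative of ZFP36, fell by 0.54 ± 0.10 (SE; 5.3e-04) from 337 and 331 to 223 and 238 CPM, against the direction of ZFP36.

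In the same list MCL1, a survival factor, rose from 66.9 and 70.6 to 119 and 122 CPM (0.81 ± 0.10 SE; edgeR adjusted p 4.7e-07), and BTG1, an antiproliferative gene, rose by 0.88 ± 0.11 (6.0e-07). CTGF, a matrix protein gene and YAP target, rose by 0.95 ± 0.16 (1.4e-04) and RHOB by 0.51 ± 0.10 (4.7e-04). Its further rises EGR1 (1.01), ANKRD1 (0.83) and TRIB1 (0.36) lost their calls without at least 2 of the libraries, with adjusted p up to 0.20, 0.18 and 0.41. The falls of IER3, IER5, IER5L and NR4A1 lay between -0.53 and -0.33. IER3, IER5 and NR4A1 lost their calls without either untreated library, with adjusted p of 0.073 to 0.29, and those 3 and IER5L lost them without the second GSK591 with Dex library, with adjusted p of 0.091 to 0.35.

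TGF-beta and Hippo genes went in both directions. Of 21 TGF-beta genes tested 3 rose and 1 fell (19.0% called), with a median of 0.01. Of 18 tested genes of the Hippo and Notch list 4 rose and 1 fell (27.8% called), with a median of 0.08. The share called of all genes tested was 5.85%. BAMBI, a decoy receptor for TGF-beta (chromosome 10, 28677342 to 28682939, plus strand), went from 25.4 and 25.8 to 44.3 and 41.8 CPM without overlap, a rise of 0.75 ± 0.14 (SE; edgeR adjusted p 4.3e-04). SMURF2 rose by 0.84 ± 0.17 (0.0011), while the inhibitory SMAD6 fell by 0.37 ± 0.10 (0.022). YAP1, the Hippo pathway's coactivator, rose from 16.1 and 18.4 to 33.2 and 32.8 CPM (0.93 ± 0.14; 1.3e-05), with WWTR1 (0.50), TEAD1 (0.46) and ANKRD1. AJUBA, an adaptor that holds LATS kinases, fell from 84.3 and 91.9 to 42.0 and 47.3 CPM (-0.98 ± 0.11 SE; 3.2e-08). The call of WWTR1 was lost without either untreated library (0.48, adjusted p 0.12 and 0.51, 0.071) and without the second GSK591 with Dex library (0.48, 0.069), that of TEAD1 without untreated replicate 1 (0.35, 0.28) and without the first GSK591 with Dex library (0.33, 0.19). SMAD6 lost its call without any 1 of the 4 libraries (adjusted p 0.063 to 0.23), and SMURF2 without the first GSK591 with Dex library (0.62, 0.063).

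Genes named by the rule from outside these lists mostly fell. LGALS1, which encodes the lectin galectin-1 (chromosome 22, 37675608 to 37679806, plus strand), went from 14.4 and 13.0 to 4.10 and 5.05 CPM and had the largest fall, by 1.59 ± 0.22 (SE; edgeR adjusted p 3.3e-06). CXXC1, a CpG-binding subunit of a histone H3 methyltransferase complex (chromosome 18, 50282343 to 50288304, minus strand), went from 18.2 and 16.3 to 9.05 and 7.19 CPM (-1.08 ± 0.17 SE; 3.4e-05). MIDN, which encodes the proteasome adaptor midnolin (chromosome 19, 1248553 to 1259140, plus strand), fell from 129.5 and 129.5 to 76.1 and 66.4 CPM (-0.86 ± 0.10; 2.9e-08). In each the treated pair was the low one and no library overlapped. MRPS18B, VMO1, LINC00638, AL356488.1, AC145543.1, AC093525.8 and RNF151 completed the 10 with GYS1, at log2 fold changes of -1.18 for LINC00638, -1.19 for MRPS18B and -1.24 for VMO1. RNF151 stood at 6.08 and 1.53 CPM with both agents, and its call was lost without the second of those libraries (-0.35, adjusted p 0.60) and without either untreated one (-0.90, 0.25 and -1.11, 0.079). Without untreated replicate 1 the calls of MRPS18B (-1.08, 0.058), VMO1 (-0.92, 0.19) and AC093525.8 (-0.66, 0.36) were lost, without untreated replicate 2 that of AC145543.1 (-0.85, 0.14), without the first GSK591 with Dex library those of AC145543.1 (-0.88, 0.081) and AC093525.8 (-0.91, 0.097), and without the second that of VMO1 (-0.78, 0.16). TBC1D8-AS1, a noncoding gene on chromosome 2, was the remaining one of the 10 largest rises (1.71 ± 0.24 SE; 5.5e-06), with 9.48 and 17.0 CPM in the treated libraries against 4.41 and 3.61.

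The p53, arginine methylation and mitochondrial lists gave no calls. No p53 target was called of 26 tested (median 0.01), and CDKN1A was at 20.1 and 21.8 against 32.8 and 22.0 CPM. No gene of arginine methylation or of the Sm proteins was called of 19 tested (median 0.01). PRMT5, the target of GSK591, was read at 13.7 and 13.8 CPM untreated and 11.5 and 16.4 CPM with both agents, and PRMT1 at 94.8 and 94.3 and 85.5 and 90.0 CPM. An enzyme inhibitor need not change its target's transcription, so these levels do not check the treatment. Of 50 cytosolic ribosomal protein genes 5 fell, among them RPL10, RPL13A, RPL28 and RPS2, and none rose (median -0.03), but all 5 share exons with other annotated genes. That share of 10.0% is near the 8.53% called among genes at 5 CPM or more (5.85% of all genes tested). RPL13A and RPS2 lost their calls without untreated replicate 2 (-0.35, adjusted p 0.10 and -0.30, 0.25), RPS2 without replicate 1 (-0.44, 0.061), and RPL28 (-0.37, 0.061), RPL13A (-0.37, 0.056) and RPS2 (-0.31, 0.18) without the second GSK591 with Dex library. None of the 15 listed mitochondrial genes for proteins and ribosomal RNAs was called (median 0.02), and of all 29 genes tested on the mitochondrial chromosome 1 was, the tRNA gene MT-TV, higher by 0.99 on the log2 scale and chosen after its value was seen.

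The ATF4 stress list had 1 of 20 called (PPP1R15A lower), with a median of -0.03. That share of 5.0% is near the 5.85% of all genes tested. Heat shock had 4 of 15 called (26.7%), DNAJB1 and BAG3 higher and HSPA1A and DNAJA1 lower, with a median of -0.11. NRF2 had 4 of 23 called (17.4%), GCLC and SRXN1 higher and OSGIN1 and MAFG lower, with a median of -0.04. BAG3, a co-chaperone of HSP70, rose from 22.4 and 22.0 to 38.8 and 37.5 CPM (0.78 ± 0.14 SE; edgeR adjusted p 1.6e-04). Cholesterol genes had 2 of 20 called (1 higher, and FDFT1 lower, with a median of -0.14), a share of 10.0% that is near the 8.53% of genes at 5 CPM or more. The MYC network had 3 of 12 called (MAX higher, MXD3 and MLX lower, with a median of -0.03). The list of P-TEFb and polymerase pausing had 3 of 20 called (15.0%). Among genes of P-TEFb and polymerase pausing, MEPCE and HEXIM2, parts of the complex that holds P-TEFb inactive, fell by 0.58 ± 0.10 and 0.55 ± 0.10 (SE; 8.6e-05 and 3.1e-04) and the elongation factor gene ELL2 rose by 0.60 ± 0.17 (0.024), of 20 tested. Several of these calls were lost when 1 library was left out: PPP1R15A and MLX lost theirs without untreated replicate 1 (-0.45, adjusted p 0.053 and -0.46, 0.074), and MXD3 without untreated replicate 2 (-0.41, 0.094) and the second GSK591 with Dex library (-0.33, 0.16). DNAJB1, HSPA1A, DNAJA1, OSGIN1, FDFT1 and MAX lost theirs without either untreated library, with adjusted p of 0.052 to 0.29, and without 1 or both of the libraries given both agents, with adjusted p of 0.085 to 0.26. ELL2 lost its call without either untreated library (0.54, adjusted p 0.23 and 0.66, 0.090) and without the first GSK591 with Dex library (0.44, 0.22). Over all 28 lists, 105 of 507 distinct members tested were called (20.7%, against 5.85% of all genes tested and 8.53% of those at 5 CPM or more), 69 higher and 36 lower, and 55 of the 105 share no exon with another gene. The lists were chosen with earlier results of these data known, so the larger share is no test of them. Without untreated replicate 1 the count of called members was 68. Of the genes named, ANGPTL4, IRS2, MT1X, FOXO1, ELF3, BHLHE40, PER2, LRIG1, MAFG, IER2, MCL1, BTG1, CTGF, YAP1, AJUBA, MEPCE and HEXIM2 are among those that share exon positions with another gene, which leaves the assignment of their reads uncertain.

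Of the 10 largest rises under the naming rule, 8 were microRNA genes that lie on chromosome 21 within ribosomal DNA. Their RefSeq mature sequences are shown to identify the transcripts, with the seed, bases 2 to 8, in capitals. The 2 differ in seed, and miR-3687 is named only.
hsa-miR-3648: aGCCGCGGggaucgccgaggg
hsa-miR-6724-5p: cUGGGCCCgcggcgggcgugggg

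MIR3687-2 (chromosome 21, 8987370 to 8987430, plus strand) was at 56.2 and 68.1 CPM in untreated cells, 1020 and 401 CPM with GSK591 alone and 2428 and 752 CPM with both agents. All 4 libraries given GSK591 were far above the untreated ones, and in each pair the first was well above the second. Its log2 fold change with both agents was 4.68 ± 0.38 (SE; edgeR adjusted p 8.2e-12), and MIR3687-1 gave 4.59 ± 0.39 (2.6e-11). MIR3648-1 (chromosome 21, 8208473 to 8208652, plus strand) went from 34.4 and 39.6 to 845 and 305 CPM (3.96 ± 0.34; 4.0e-11), with 293 and 84.4 CPM in the libraries given GSK591 alone. The 4 copies of MIR6724 rose by 2.45 to 2.93 from untreated levels between 1.18 and 2.63 CPM, and MIR663AHG on chromosome 20 rose by 3.30 ± 0.24 (2.6e-13). Removing trends on GC content and span lowered these values to 3.42 for MIR3687-2, 3.33 for MIR3687-1, 2.56 for MIR3648-1 and 1.5, 1.33 and 1.26 for MIR6724-1, MIR6724-2 and MIR6724-3, all still called, and MIR6724-4 lost its call (1.04, adjusted p 0.13). Without the first GSK591 with Dex library MIR3687-2 gave 3.59, MIR3687-1 3.46, MIR3648-1 3.04 and MIR663AHG 2.70, without the second MIR3687-2 gave 5.30 and MIR3687-1 5.22, and without untreated replicate 2 MIR6724-1 gave 3.56.

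All 9 members tested of this list were called, against 5.85% of all genes tested. The copies within each of MIR3648, MIR3687 and MIR6724 come from multicopy loci, so how reads were split between copies is uncertain. MIR663AHG is a separate gene on chromosome 20. The share of counts in annotated rRNA genes was 1.09% and 0.638% with both agents and 0.611% and 0.521% in untreated cells. With GSK591 alone it was 1.01% and 0.942%. Its part in the rises was not tested. Reads of the ribosomal RNA precursor and of a microRNA transcript cannot be told apart in these counts.

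The libraries given GSK591 alone allowed Dex added to GSK591 and GSK591 alone to be compared as well. Between GSK591 with Dex and GSK591 alone 811 genes were called (3.70% of those tested), 313 higher (1.43%) and 498 lower (2.27%), and between GSK591 alone and untreated cells 67 (0.306%), 65 higher (0.297%) and 2 lower (0.00913%). Scaling by library size alone gave 1472 calls for Dex added, with 6.7% of them higher in place of 38.6%, and moved the median of all genes there from 0.00 to -0.21. Removing trends on GC content and span gave 288 higher and 303 lower, or 48.7% higher. The count for Dex added fell to 339 and 364 without the first and the second GSK591 library and to 354 without the second GSK591 with Dex library, and that for GSK591 alone to 10 and 21 without untreated replicates 1 and 2 and to 4 without the first GSK591 library. The 3 comparisons share libraries, so their values are given side by side only. ERRFI1 changed by 1.74 ± 0.11 (SE; edgeR adjusted p 5.5e-14) when Dex was added and by 0.04 ± 0.12 (0.99) with GSK591 alone. PER1 gave 1.89 and -0.06, TSC22D3 1.72 and -0.09, ZFP36 1.35 and -0.01, and GYS1 -1.20 and -0.27, in the same order. KLF9 stood at 7.54 and 7.39 CPM with GSK591 alone, below the untreated libraries, so adding Dex gave a larger value, 1.57 ± 0.19 (SE; 3.3e-07), than the comparison with untreated cells.

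Several genes already stood higher with GSK591 alone than in untreated cells. That comparison lost most of its calls without some single libraries. No values with a library left out are given for its genes, KLF15 below included. CEBPA, a factor of epithelial differentiation (chromosome 19, 33299934 to 33302564, minus strand), was at 46.1 and 43.1 CPM untreated, 87.7 and 74.5 CPM with GSK591 alone and 94.5 and 76.2 CPM with both agents. GSK591 alone gave 0.86 ± 0.13 (SE; edgeR adjusted p 2.6e-04) and Dex added to it 0.08 ± 0.13 (0.83). SOCS1 gave 0.69 (0.013) and 0.28 (0.3). CRLS1, the cardiolipin synthase, YBX3, a cold shock domain protein, and MAP3K1, a MAP kinase kinase kinase, were chosen after their values were seen, and gave 1.08, 0.82 and 1.02 with GSK591 alone and 0.19, 0.41 and 0.43 when Dex was added. A call in 1 of these comparisons and not in the other does not show that the effects differ, and that difference was not tested.

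Among called list members, KLF15 was the one that passed the test in opposite directions in these 2 comparisons. It stood at 26.4 and 30.7 CPM untreated, 87.2 and 57.5 CPM with GSK591 alone and 49.8 and 42.2 CPM with both agents. It rose by 1.34 ± 0.18 (SE; edgeR adjusted p 3.0e-05) with GSK591 alone and fell by 0.65 ± 0.18 (0.028) when Dex was added. That fall lost its call without the first GSK591 library (-0.32, adjusted p 0.57), without the second GSK591 with Dex library (-0.53, 0.23), with DESeq2 (-0.65, 0.50) and with GC and span trends removed (-0.51, 0.090). CEBPB held an intermediate level with GSK591 alone, 42.0 and 32.3 CPM, where its adjusted p against untreated was 0.091, and rose by 1.10 ± 0.14 (6.5e-07) with Dex.

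**Figure D4:**
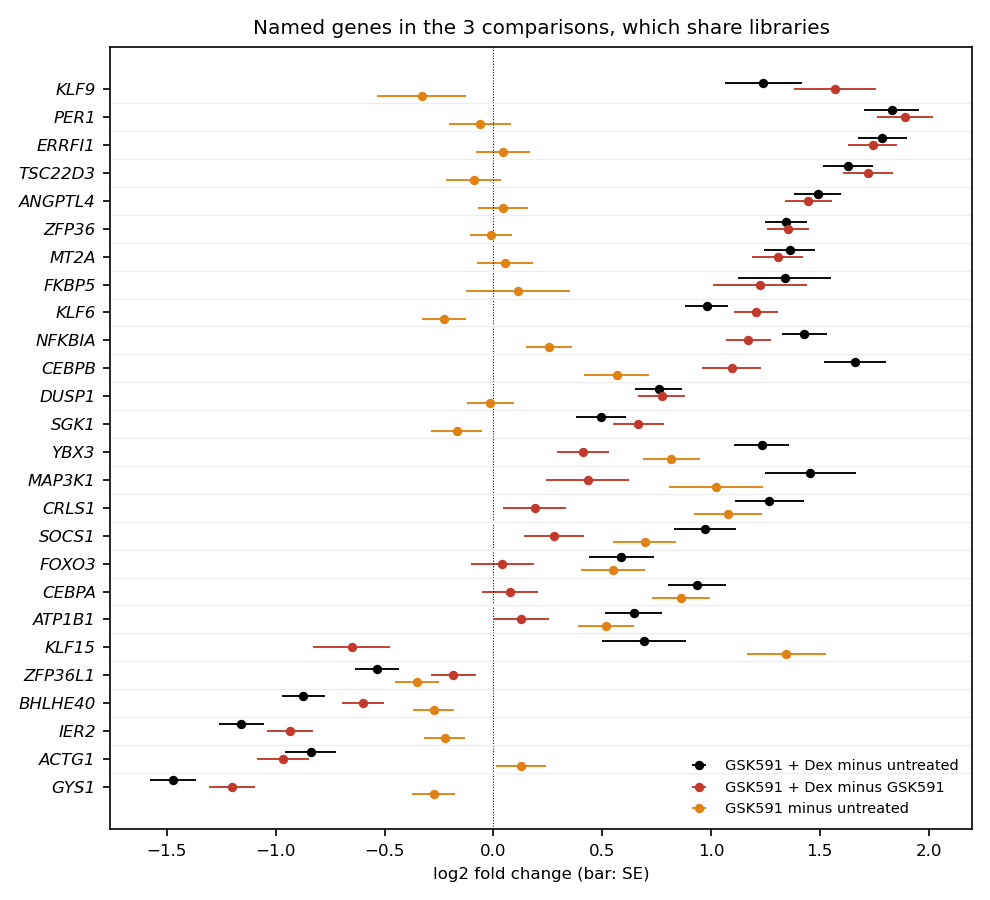
The log2 fold changes of 26 named genes (point, with a bar of 1 SE) for GSK591 with Dex over untreated in black, GSK591 with Dex over GSK591 in red and GSK591 over untreated in orange, which share libraries. From KLF9 to SGK1 the orange points lie between -0.33 and 0.26 apart from CEBPB at 0.57, and from YBX3 to KLF15 the orange point lies to the right of the red one.

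Against cells given Dex with MS023 in place of GSK591, no gene was called (0.0% of 21910 by edgeR), 1659 had an unadjusted p under 0.05, and DESeq2 called none. Leaving out the first GSK591 with Dex library gave 78 calls and the second 1, and leaving out the count filter gave 35. The 95% intervals of single genes show what size of difference these libraries could hold, without adjustment for the number of genes. For ERRFI1, at 120.4 and 99.2 CPM with GSK591 and 102 and 94.9 CPM with MS023, the difference lay in -0.05 to 0.36 on the log2 scale, and for GYS1 in -0.22 to 0.21. NFKBIA was at 265 and 233 CPM with GSK591 and 299.6 and 314 CPM with MS023, an interval of -0.50 to -0.10, and ZFP36 at 275 and 258 and 302 and 332 CPM (-0.44 to -0.06). For both genes the MS023 libraries were the higher, with no overlap, and the adjusted p values were 0.48 and 0.55. FKBP5 (-0.31 to 0.45), KLF9 (-0.62 to 0.01) and DUSP1 (-0.38 to 0.05) had intervals that included 0.

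Genes called in the 2 directions differed in length and base composition. The median annotated span was 38.0 kb for genes called higher, 7.3 kb for those called lower and 16.9 kb for all tested, and 43.0%, 5.7% and 26.0% spanned more than 50 kb. Among protein-coding genes the medians were 50.3, 8.6 and 30.6 kb. Median GC content of the longest transcript was 47.1% for genes called higher, 57.3% for those called lower and 49.9% for all. With all genes cut into 5 equal bins of span, the median log2 fold change ran from -0.09 in bin 2 (2.45 to 10.3 kb) to 0.10 in bin 5 (over 67.1 kb), and for Dex added to GSK591 from -0.09 to 0.06. By chromosome, the share called higher was largest on chromosome 21, where 24 of 260 tested genes were higher (9.23%, against 3.21% of all genes) and 3 lower. The genes called higher there include the 8 microRNA genes within multicopy ribosomal DNA, and FP236383.2 in that segment. The share called lower was largest on chromosome 19, with 88 of 1480 (5.95%, against 2.64% of all genes) and 13 higher. After trends on GC content and span were removed from each library, an alternative chosen after the data were seen, 1082 genes were called, 565 higher and 517 lower, and 105 list members, the same number as before. What moves with span and GC content in these libraries was not tested further.

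**Figure D5:**
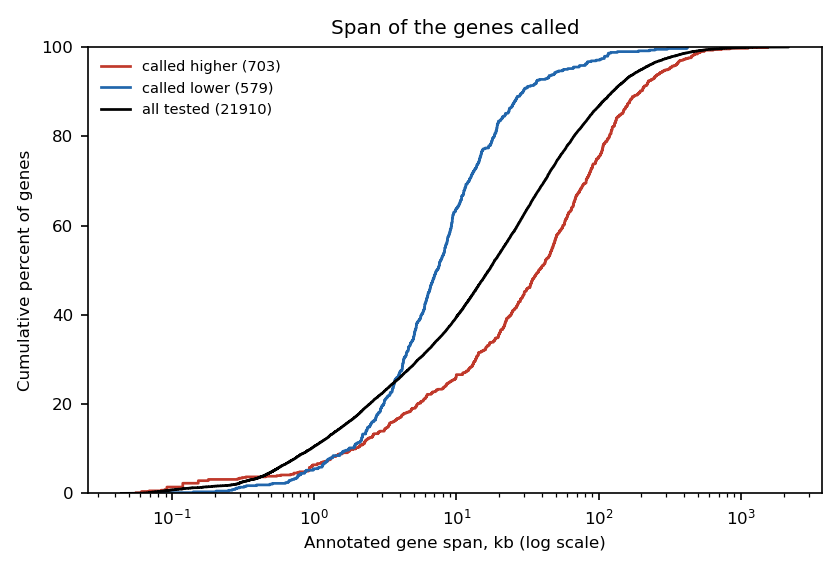
Cumulative percent of genes against annotated gene span (kb, log axis) for the 703 genes called higher, the 579 called lower and all 21910 tested. The curve of genes called lower reaches 50% at 7.3 kb and that of genes called higher at 38.0 kb, on either side of all genes at 16.9 kb.

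The authors' deposited table of the same comparison gave an adjusted p under 0.05 to 154 genes, 77 higher and 77 lower, and all 154 were also called by edgeR here. Most of the 1282 edgeR calls were therefore not called there. Among named genes, the authors' DESeq2 adjusted p was 0.054 for BAG3, 0.062 for CEBPA, 0.098 for TNFAIP3, 0.10 for BAMBI, 0.42 for SGK1 and 0.89 for KLF15. In the authors' deposited table the log2 fold changes of ZFP36, GYS1 and ERRFI1, its genes of smallest p among those named here, were 1.43, -1.50 and 1.79.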

How the data were processed

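PRO-seq libraries were counted per gene with featureCounts 2.0.1 of the Subread package on hg38, per the submitters' processing notes, and the authors deposited unnormalized counts for 58780 genes in 14 libraries, 7 groups of 2. The aligner, strand setting, counted feature and treatment of duplicates are not given in the sources used here. The authors' deposited table of this comparison, made with DESeq2 per the submitters' processing notes, holds mean normalized counts as a signal, log2 fold changes with standard errors, a test statistic (a score), and p-values; per the file headers, no sample values are in it.

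Genes passing edgeR's expression filter (21910) were fitted with the quasi-likelihood model of edgeR 4.0.16 (R 4.3.3, limma 3.58.1) over all 14 libraries, with TMM scaling and the 7 groups as design, which leaves 7 residual degrees of freedom. P-values were adjusted by Benjamini-Hochberg over all genes tested at a threshold of 0.05, and standard errors are the fold change over the root of its F statistic. The members and lists were chosen with earlier results of these data known. The genes named were the 10 largest rises and falls among called genes with at least 5 CPM, no overlap of libraries and no shared exon, the 5 smallest p in each direction, and every called member of 28 lists; others are said to be chosen after their values were seen. A few genes that the rule names are not reported here. Positions and exon sharing come from GENCODE 29 (all 58780 identifiers matched), promoters and microRNAs from RefSeq.

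Total counts were 7317701 to 9606938 in the 4 libraries compared and 5768312 to 9606938 over all 14. Chi-square over its degrees of freedom between replicates was 2.08 in untreated cells and 13.9 with GSK591 and Dex. It is near 1 for counting noise alone, but unlike mitochondrial shares also raise it, since counts were scaled by library total only. In simulated counts for this comparison, edgeR recovered 91.5% of 200 genes changed by 1 on the log2 scale and called 8 unchanged genes of 21433 tested, and DESeq2 1.42.0 recovered 79.5%. The simulation gave every group the same spread per gene, as the fit assumes. It therefore does not show the error rates where 1 pair of libraries differs more than the others, as the pair given both agents did. Alternatives were DESeq2, other scalings, no filter, mitochondrial genes left out, a replicate block, only the 4 libraries compared, each library left out and trends on GC content and span removed, the last chosen after seeing the data.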

Additional observations from a re-analysis of the deposited data

How the results depend on the processing

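For GSK591 with Dex against untreated, 1282 calls became 801 with only the 4 libraries fitted, 596 with DESeq2 and 420 to 1058 with a library left out. For Dex added to GSK591, 811 calls became 1472 with library size alone, 385 with the 4 libraries, 401 with DESeq2 and 339 to 1007 with a library left out. For GSK591 alone, 67 became 126 without a count filter, 187 with the 4 libraries, 27 with DESeq2 and 4 to 97 with a library left out. Against MS023 with Dex, 0 became 35 without a filter, 4 with the 4 libraries and 0 to 78 with a library left out. The 105 called list members were 68 to 92 with a library left out and 55 when counted without shared exons. The cause of these moves was not tested. With a library left out the lone sample of its group is assumed to vary like the other groups. Replicate numbers did not pair the samples (correlations of replicate differences from -0.10 to 0.22 over pairs of groups). A fit with the replicate block gave 1344, 860, 74 and 0 calls in the 4 comparisons and 111 list members, and all 147 named genes kept their call against untreated cells. Of those 147, 119 kept it under library size alone, 124 with the 4 libraries, 113 of 138 with an adjusted p under DESeq2, 130 with GC and span trends removed, and 98 to 119 with a library left out, and none reversed.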

Other observations

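The genes in the following sentences were chosen after their values were seen. CAVIN2, a coat protein of caveolae, read 8.07 and 7.33 CPM in untreated cells and 23.34 and 26.6 CPM with GSK591 and Dex, a rise of 1.69 ± 0.16 (SE; edgeR adjusted p 1.1e-09) with no overlap. LURAP1L rose by 1.29 ± 0.14 (2.5e-08), the transcriptional repressor PRDM1 from 15.5 and 16.0 to 30.4 and 31.4 CPM (0.97 ± 0.13; 2.1e-06), and CITED2, a coactivator-binding protein, from 31.3 and 37.4 to 58.4 and 54.3 CPM (0.72 ± 0.11; 2.5e-05). CREM, a cAMP-responsive factor, and ODC1, the first enzyme of polyamine synthesis, rose by 1.07 and 0.87. ANXA1, the glucocorticoid-regulated protein annexin A1, rose by 0.65 ± 0.13 (8.2e-04).

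Among the falls were cytoskeletal genes outside the lists. The tubulin genes TUBB4B and TUBA4A went from 65.9 and 72.6 to 40.2 and 40.4 CPM and from 36.7 and 39.7 to 21.1 and 21.6 CPM, falls of 0.78 ± 0.11 and 0.84 ± 0.13 (SE; edgeR adjusted p 4.7e-06 and 3.4e-05), and VIM, the intermediate filament vimentin, fell by 0.50 ± 0.10 (7.2e-04), while TMSB10, an actin-binding thymosin, rose by 0.53 ± 0.10 (6.5e-04). These 4 genes, SQSTM1, CAVIN2 and CREM share exon positions with another annotated gene. SQSTM1, an autophagy receptor, fell by 0.69 ± 0.10 (7.9e-06). HIST2H2BE, a gene of histone H2B, read 221 and 222 CPM untreated and 152 and 166 CPM with both agents (-0.48 ± 0.10; 0.0019).

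FP236383.2, a short annotated gene in the ribosomal DNA segment (chromosome 21, 8393419 to 8394341, minus strand), read 9686 and 8362 CPM in untreated cells and 23500 and 17320 CPM with both agents, and FP671120.1, which spans 8197620 to 8227646 there, read 2582 and 2584 and 1844 and 1334 CPM. The first rose by 1.18 ± 0.22 (SE; edgeR adjusted p 3.9e-04) and the second fell by 0.70 ± 0.16 (0.0037), a call lost without the second GSK591 with Dex library (-0.48, 0.10). The segment is multicopy, so how reads were placed in it is uncertain.

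The comparison has 2 libraries a group, and those given both agents differed from each other more than the untreated ones did. Counts are given per gene without position, so paused and elongating polymerase are not separated. Whether exons or whole genes were counted is not given, and overlap between genes was checked for exons only. Dex without an inhibitor is not analysed here. Where genes overlap, the counts do not show which was transcribed.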
